A study of Mus musculus with 16 samples.

Results

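The regions described here carried ATAC-seq peaks at the DN and SP4 stages of thymocyte development and none at the DP or SP8 stage. They were chosen by the peak calls themselves: the peaks of the 4 stage lists were merged where they shared at least 1 bp, and a merged region was kept if it held a DN and an SP4 peak but no DP and no SP8 peak. This gave 5197 of 185978 merged regions (2.79%). All merged regions lay on the 19 autosomes, so genes of the X and Y chromosomes have no region here. Because the calls selected the members, peak heights and the pattern over stages are given as a description only.

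ATAC-seq marks open chromatin by inserting sequencing adapters into accessible DNA. Thymocytes of 4 wild type C57BL/6J mice aged 9 weeks were sorted into 4 stages, giving 16 libraries and 4 per stage. All 4 gates were negative for a lineage cocktail that included antibodies to TER119, B220, Mac1, Gr1, CD11c, NK1.1 and the gamma delta TCR. Within it, DN cells lacked CD4, CD8 and CD3, DP cells carried CD4 and CD8, SP4 cells carried CD4 and CD3 without CD8, and SP8 cells carried CD8 and CD3 without CD4. The peaks were called on the pooled reads of the 4 mice, so there is 1 list per stage, the spread between mice is not in these lists and stages were not compared by a test. Intervals printed below are 95% Wilson intervals, or order statistics for a median, and cover counting error only.

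In the thymus, DN progenitors commit to the T cell lineage and rearrange the TCR beta gene, after which DP cells rearrange TCR alpha and undergo selection. SP4 cells are the helper and regulatory branch and SP8 cells the cytotoxic branch. A stage-restricted open region away from promoters is often an enhancer or a silencer, bound by factors such as GATA3, RUNX1, RUNX3, TCF7 and ETS1, although openness alone does not show activity.

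The T cell label was checked at the promoters of 10 identity genes. Peaks lay at 9 of 10 promoters at all 4 stages, among them *Ptprc* (the pan-leukocyte phosphatase CD45), *Cd3e*, *Cd3d* and *Cd3g* (the CD3 chains), *Lck* (the kinase that starts TCR signalling), *Bcl11b*, *Tcf7* and *Gata3* (T cell transcription factors) and *Thy1*. The exception was *Cd2*, an adhesion receptor, whose promoter was called at SP4 and SP8 and not at DN or DP. The nearest peaks to a *Cd2* TSS (transcriptional start site) lay 1281 bp away at DN and 796 bp away at DP.

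To show what such regions look like, the 100 bp around the summit are printed for 8 members with the tallest peaks at both stages, in descending order. All are read 5′ to 3′ on the plus strand of mm10 (GRCm38), counted from 1, and are named by the protein-coding gene with the nearest TSS. Capitals mark matches, on either strand, to the GATA, TCF7/LEF1, RUNX, ETS, GFI1, SOX, PBX and IRF consensus sequences described further on, and a window with no capitals held none of them.
Fgf6 window, chr6:126995598-126995697: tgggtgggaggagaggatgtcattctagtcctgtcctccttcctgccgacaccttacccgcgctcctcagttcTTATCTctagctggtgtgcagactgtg
Il3 window, chr11:54271641-54271740: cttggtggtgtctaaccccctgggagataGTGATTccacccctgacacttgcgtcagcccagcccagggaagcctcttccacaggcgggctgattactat
Slc36a4 window, chr9:15786266-15786365: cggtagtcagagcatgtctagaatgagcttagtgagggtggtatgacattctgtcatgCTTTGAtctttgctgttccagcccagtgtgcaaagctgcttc
Rgs21 window, chr1:144500191-144500290: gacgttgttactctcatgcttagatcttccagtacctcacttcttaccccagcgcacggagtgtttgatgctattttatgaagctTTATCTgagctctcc
Gm10260 window, chr13:97755245-97755344: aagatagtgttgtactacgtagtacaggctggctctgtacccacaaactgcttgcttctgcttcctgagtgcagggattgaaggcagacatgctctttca
Tfr2 window, chr5:137580115-137580214: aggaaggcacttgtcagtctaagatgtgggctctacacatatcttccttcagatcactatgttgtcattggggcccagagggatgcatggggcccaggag
Pappa2 window, chr1:159065165-159065264: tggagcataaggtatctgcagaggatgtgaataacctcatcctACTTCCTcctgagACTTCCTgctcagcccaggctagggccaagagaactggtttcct
St5 window, chr7:109579075-109579174: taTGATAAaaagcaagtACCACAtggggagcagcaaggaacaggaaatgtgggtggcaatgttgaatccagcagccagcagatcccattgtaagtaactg
A GATA match stood in the *Fgf6*, *Rgs21* and *St5* windows, and the *St5* window also held a RUNX match. The *Pappa2* window held 2 ETS matches, the *Slc36a4* window a TCF7/LEF1 match and the *Il3* window a GFI1 match. The *Gm10260* and *Tfr2* windows held none of the 8 motifs.

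The tallest member lay between genes at chr6:126995538-126995977, 19609 bp upstream of *Fgf6*, which encodes a fibroblast growth factor. Height is given as the percentile of a peak's fold enrichment within its own stage list, and here it was 98.3 at DN and 98.4 at SP4. The fold enrichment over local background was 26.1 and 28.4, and the nearest region with a DP or SP8 peak was 38890 bp away. Few other members came close to this height at both stages. The next, at chr11:54271388-54271987, lay 4111 bp upstream of *Il3*, a haematopoietic cytokine gene, with percentiles of 94.2 at DN and 88.2 at SP4. The member nearest *Slc36a4*, an amino acid transporter gene, reached 85.2 and 86.7 at chr9:15786142-15786669, 76403 bp from its TSS. The members nearest *Rgs21* (a regulator of G protein signalling) and *Gm10260* (a gene model annotated as protein coding that may be a pseudogene) also lay between genes. Their distances to a TSS of these genes were 51170 bp and 5141 bp. These members had percentiles of 84.2 and 85.9 at chr1:144499745-144500394 and of 83.7 and 92.1 at chr13:97755102-97755491, in the order DN and SP4.

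Of the 15 tallest members, 1 was exonic, 6 were intronic and 8 lay between genes, and none was at a promoter. The exonic member, at chr5:137579969-137580357 in *Tfr2* (transferrin receptor 2), had percentiles of 94.0 at DN and 82.1 at SP4. The members in introns belonged to *St5*, *Gnao1* (a G protein alpha subunit), *Palld* (the actin-binding protein palladin), *Mitf* (a transcription factor of melanocytes and mast cells), *Itga8* (an integrin chain) and *Stab2* (a scavenger receptor). The *Pappa2* member was unequal, at percentile 99.6 at DN and 80.9 at SP4. For the member nearest *Qk*, which encodes an RNA-binding protein, the order was the opposite, 77.6 at DN and 88.0 at SP4. It lay 241519 bp from a *Qk* TSS. The member nearest *Csnk1g3*, a casein kinase gene, had 79.0 and 83.5 and stood 227377 bp from its TSS.

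Most members were small. The median percentile was 36.8 at DN (quartiles 19.7 and 56.0) and 26.5 at SP4 (quartiles 14.2 and 39.4), and the median fold enrichment was 4.53 at DN and 4.07 at SP4. Both percentiles were 50 or more in 285 members (5.48%) and 75 or more in 18 (0.346%), whereas both were under 25 in 1090. The DN percentile was the higher of the pair in 3348 members (64.4%). Percentiles rank peaks within lists that differ, with a median fold enrichment of 5.56 at DN and 5.93 at SP4. A higher DN percentile therefore need not mean a higher fold enrichment. The *Mitf* member had percentiles of 78.3 and 77.8 but fold enrichments of 10.9 and 11.9. Across the 5197 members the DN and SP4 percentiles had a Pearson correlation of 0.27 and a Spearman correlation of 0.31. These points share the 2 lists, and nearby peaks share sequence and local background. For comparison, regions called at all 4 stages had median percentiles of 73.5 at DN and 69.4 at SP4, and regions called at DN, SP4 and SP8 had 43.0 and 39.4. DN-only regions had a median of 30.2 and SP4-only regions 23.2.

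**Figure D1:**
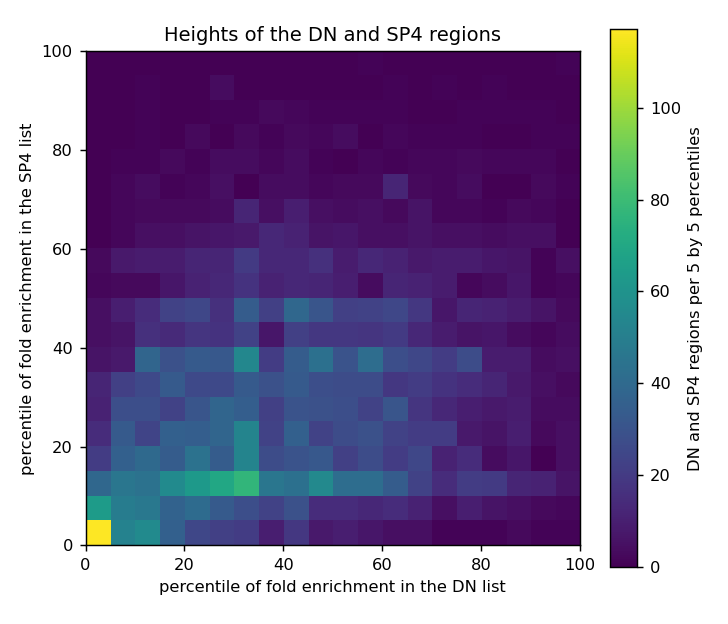
Number of DN and SP4 regions by the percentile of fold enrichment in the DN list (x axis) and in the SP4 list (y axis), in squares of 5 by 5 percentiles. Most of the 5197 regions fill the lower left, with medians of 36.8 at DN and 26.5 at SP4, and 18 have both percentiles at 75 or more.

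The DN and SP4 peaks of a member sat at nearly the same place. Their summits were a median of 24.0 bp apart, within 50 bp in 3851 members (74.1%) and over 100 bp apart in 469 (9.02%), and 5137 members (98.8%) held exactly 1 peak of each stage. The median width was 203 bp for members and also for DN and SP8 regions. DN-only regions measured 154 bp, those of SP4 alone 128 bp and those of all 4 stages 465 bp. Altogether the members covered 1229545 bp.

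The authors called peaks at a false discovery rate of 5%, so a region changes class when a weak peak crosses that line. Just inside it, 86 members (1.65%) had a −log10 q-value under 2 at DN or SP4, with median percentiles of 30.4 at DN and 4.08 at SP4. The lowest −log10 q-value of a member was 1.77 at DN and 1.44 at SP4. Just outside, 33 of the 5837 regions called at DN, DP and SP4 had a DP peak with a −log10 q-value under 2 (lowest 1.36), and their median percentiles were 49.1 at DN and 28.5 at SP4. Of the 7539 regions called at DN, SP4 and SP8, 8 had such an SP8 peak (lowest 1.58), with medians of 33.3 and 23.9. A region without a call at DP or SP8 may still hold signal under the threshold.

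Among the 57050 regions called at DN and not at DP, 40393 (70.8%) were not called again at SP4 or SP8, 7539 (13.2%) were called at both, 5197 (9.11%, interval 8.88 to 9.35) at SP4 alone and 3921 (6.87%, 6.67 to 7.08) at SP8 alone. The DN and SP4 regions outnumbered the DN and SP8 regions on 19 of 19 chromosomes. This order depended on the length of the SP4 list, which held 115074 peaks where the SP8 list held 104411. With only the SP4 list cut to its top 104411 peaks there were 3936 DN and SP4 and 4635 DN and SP8 regions, the opposite order. With all 4 lists cut to that number, 2239 stood beside 2521. A q-value of at most 0.001 in all lists kept the first order, with 5053 and 3888. Members made up 27.4% (26.8 to 28.1) of the 18939 regions called at SP4 and at neither DP nor SP8. The corresponding share of DN and SP8 regions, among 11752 regions called at SP8 and at neither DP nor SP4, was 33.4% (32.5 to 34.2). The share of members among all regions of a chromosome ran from 2.50% on chromosome 11 to 3.05% on chromosome 4.

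Members were mostly distal. A promoter, defined as the 200 bp upstream of a TSS of any transcript, was overlapped by 282 members (5.43%, interval 4.84 to 6.08) and by 12.5% (12.3 to 12.6) of all other merged regions. An exon but no promoter was overlapped by 657 members (12.6%), and the remaining 4258 (81.9%, 80.9 to 83.0) were distal, against 73.9% (73.7 to 74.1) of the others. Of the distal members, 2275 lay inside a protein-coding gene and 1983 between genes. The members' promoter share was 2.17% with protein-coding transcripts only and 11.8% with promoters of 1000 bp. The promoter share was lower and the distal share higher than among the others on 19 of 19 chromosomes. Regions called at DN, SP4 and SP8 were close to the members, with 5.49% at promoters and 81.4% distal. DN-only regions had 5.83% and 79.9%, DN and SP8 regions 5.15% and 80.7%, SP4-only regions 2.84% and 86.0%, and regions of all 4 stages 25.1% and 61.7%.

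The median distance from a member to the nearest TSS was 6343 bp (interval 5992 to 6677), compared with 5119 bp (5066 to 5172) for all other regions. It was longer than among the others on 19 of 19 chromosomes, and it was 20380 bp for the members when only protein-coding transcripts were used. DN-only regions had a median of 6059 bp (5947 to 6169), DN and SP8 regions 5528 bp (5233 to 5785) and SP4-only regions 7346.5 bp (7142 to 7587). The members' interval overlapped that of the DN-only regions and lay above that of the DN and SP8 regions and below that of the SP4-only regions.

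**Figure D2:**
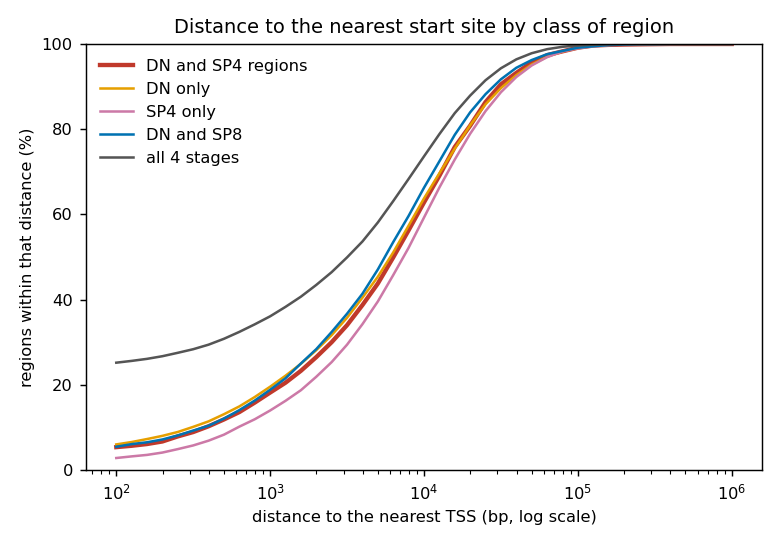
Share of regions within a given distance of the nearest TSS (x axis in bp, log scale; y axis in %), for 5 classes of region. The DN and SP4 curve runs close to the DN-only curve and below the DN and SP8 curve around its median of 6343 bp, while the regions of all 4 stages rise earliest.

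Some promoter members were tall. At *Mrgpra9*, a G protein-coupled receptor gene, the member overlapped the TSS with percentiles of 91.3 at DN and 72.5 at SP4, and its window held a GATA match. The TSS of *Ehf*, an epithelial ETS factor gene, was overlapped at percentiles of 91.2 and 62.3, and a TSS of *Zbtb20*, a zinc finger repressor gene, at 66.8 and 62.3. A TSS of *Cxcl3*, a chemokine gene, was overlapped at 77.4 and 47.4. These 4 were singled out after their values were seen.

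In the 100 bp windows the mean GC content was 51.1% in members and 53.4% in all other regions, lower on 19 of 19 chromosomes, with 53.2% in DN-only, 52.0% in DN and SP8 and 49.1% in SP4-only regions. A window without any CpG was found for 29.4% of members and 27.1% of the others. Repeats covered at least 50% of the window in 7.68% of members (6.98 to 8.43) and 7.34% of the others (7.22 to 7.46), with overlapping intervals.

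The nearest other region was itself a member for 313 of 5197 members (6.02%, 5.41 to 6.70), where members are 2.79% of all regions, and the higher share held on 19 of 19 chromosomes. DN-only regions were likewise frequent neighbours, at 26.7% of nearest regions against 21.7% of all regions, and SP4-only regions made up 8.76% against 7.39%. Regions of all 4 stages were the nearest in 30.7%, against 34.1% of all regions. A region with a DP or SP8 peak lay within 250 bp of 801 members (15.4%) and a median of 2910 bp away. Linking members whose starts were at most 50 kb apart gave 218 groups of at least 3 and 17 of at least 5. The largest in number held 7 of the 18 regions in chr13:97746276-97869868 around *Gm10260*, and 7 of 31 in chr14:64682077-64821126 at *Hmbox1* (a homeobox protein) and *Kif13b* (a kinesin). Of 6 groups with 6 members, 1 held 6 of 29 regions in chr5:23579033-23663757 within *Srpk2*, which encodes a kinase of splicing factors. *Hmbox1*, *Kif13b* and this group were singled out after their values were seen.

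Matches to 26 consensus sequences were counted on both strands, without mismatch, in the 100 bp centred on the summit of the tallest peak of each region. A match describes the sequence and is not a bound site. Of the 26, 6 had a higher share in members than in all other regions with intervals that did not meet, 6 a lower share, and 14 overlapped. The IRF consensus, of the interferon regulatory factors, stood in 1.67% of members (1.36 to 2.06) and 0.991% of the others (0.946 to 1.04), a log2 ratio of 0.76 with the same direction on 15 of 19 chromosomes that was 0.09 over whole regions. Its share over all regions was 1.01%, and it was not particular to the members, with 2.43% (2.10 to 2.80) of regions called at DN, SP4 and SP8, 1.97% (1.67 to 2.32) of those at SP4 and SP8 and 1.50% (1.17 to 1.94) of DN and SP8 regions. GATA letters, AGATAA or TGATAA, stood in 437 members (8.41%, 7.68 to 9.19) and in 5.40% (5.30 to 5.51) of the others, a log2 ratio of 0.64 in the same direction on 19 of 19 chromosomes. This ratio was 0.17 over whole regions. It was 0.97 for members with percentiles of 25 or more at both stages, set against other regions of any height. Over all regions the GATA share was 5.49%.

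The GATA share was higher in taller members. It was 7.01% (6.17 to 7.95) of 3182 members whose lower percentile was under 25, 10.2% (8.84 to 11.7) of 1730 with 25 to 50 and 13.3% (9.87 to 17.8) of 285 with 50 or more, the last of which overlaps the middle group. ETS shares over the same groups were 11.3%, 16.2% and 16.5%, and RUNX shares 17.0%, 19.8% and 22.1%. For GATA, SP4-only regions had 8.70% (8.24 to 9.18), within the members' interval, and DN-only regions 5.61% (5.39 to 5.84). A high GATA share was not particular to the members. It was 7.56% (6.99 to 8.18) in regions called at DN, SP4 and SP8 and 7.08% (6.51 to 7.70) in SP4 and SP8 regions. Both intervals overlapped that of the members.

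The other motifs in the upper 5 were weaker. The PBX letters TGATTGA stood in 0.847% of members and 0.668% of the others, and the GFI1 letters AATCAC in 3.08% and 2.62%, with overlapping intervals in both cases. The SOX letters AACAAT stood in 2.60% (2.20 to 3.07) and 2.09% (2.03 to 2.16), in the same direction on 12 of 19 chromosomes. Over whole regions the log2 ratios of all 3 turned negative, at -0.25 for PBX, -0.17 for GFI1 and -0.21 for SOX. Over all regions these shares were 0.673% for PBX, 2.64% for GFI1 and 2.11% for SOX. None was particular to the members. SP4-only regions had 1.11% for PBX, 3.50% for GFI1 and 2.80% for SOX, and SP4 and SP8 regions 1.08%, 4.15% and 3.11%. DN-only regions were lower than the members, with 0.555%, 2.38% and 1.99%.

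At the other end, 4 of the 5 lowest motifs had intervals below those of the others. The EGR letters GTGGGCG, of factors induced by TCR signals, stood in 0.577% of members and 1.13% of the others. The log2 ratio was -0.97, and -1.60 over whole regions. EGR shares were also low in regions called at DN, DP and SP4 (0.565%) and SP4-only regions (0.655%), but 0.891% in DN-only and 1.45% in DN and SP8 regions. The SP letters GGGCGGG had 1.50% and 2.50%, a log2 ratio of -0.74. This ratio was -0.09 among distal regions only and -1.44 over whole regions. SP shares were also low in DN-only (1.62%), SP4-only (1.15%) and DN and SP8 regions (1.73%), against 4.17% in regions of all 4 stages. The ROR letters AGGTCA had 3.10% (2.66 to 3.60) and 4.56% (4.46 to 4.66), lower on 17 of 19 chromosomes. The E-box CAGGTG, of E proteins and ZEB factors, had 10.6% (9.76 to 11.4) and 14.8%, lower on 19 of 19. The CREB letters TGACGTCA stood in 7 members (0.135%) and 0.172% of the others, with overlapping intervals, and its log2 ratio turned from -0.35 to 0.19 among distal regions only. Shares over all regions were 1.11% for EGR, 2.47% for SP, 4.52% for ROR, 14.7% for the E-box and 0.171% for CREB. EGR and SP letters are rich in G and C, and members were lower in GC content, whose part in these shares was not tested.

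For the E-box CAGGTG the members stood between the classes they share a stage with, at 10.6% against 19.1% of DN-only and 6.98% of SP4-only regions. The same order held for RUNX letters, TGTGGT or TGCGGT, at 18.2% of members, 23.1% of DN-only and 10.2% of SP4-only regions (17.6% of all regions). It also held for the TCF7/LEF1 letters CTTTGA, in the opposite direction, with 8.18%, 6.45% and 11.1% (7.63% of all regions). ETS letters, CGGAAGT or AGGAAGT, departed from it, since the 13.2% of members (12.3 to 14.2) was above both the 8.98% (8.71 to 9.27) of DN-only and the 11.6% (11.1 to 12.2) of SP4-only regions. The ETS share of all regions was 11.4%. A high ETS share was not particular to the members, with 17.1% (16.1 to 18.1) of regions called at DN, DP and SP4 and 13.2% of those of all 4 stages. RUNX, TCF7/LEF1, ETS, CTCF, PU.1, STAT and MYB are outside the 10 motifs at the ends of the order and were singled out after their values were seen.

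**Figure D3:**
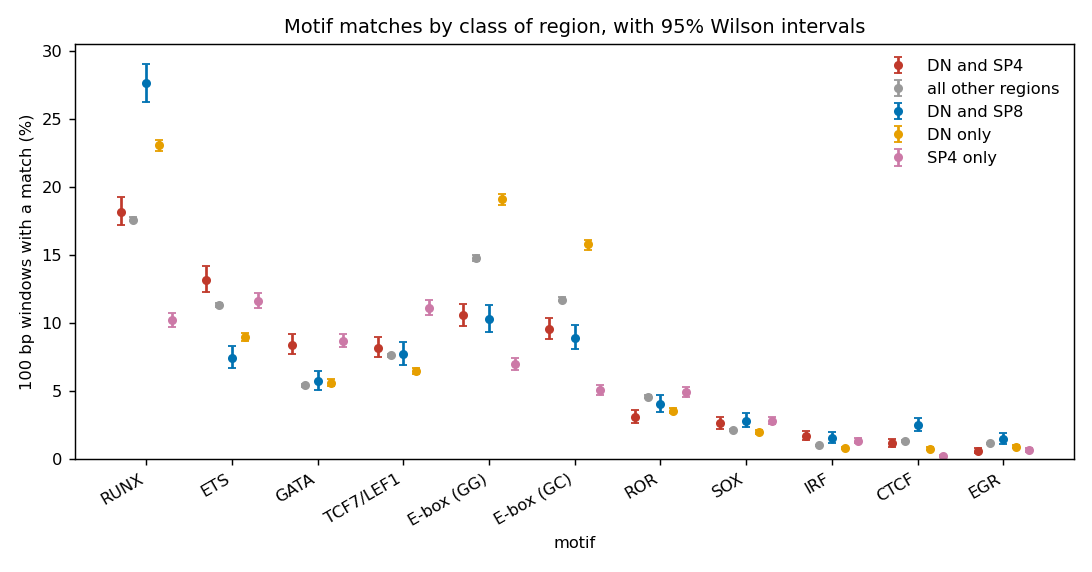
Share of 100 bp summit windows with a match (y axis, %) for 11 motifs in 5 classes of region, with bars for 95% Wilson intervals. E-box (GG) and E-box (GC) stand for the E-boxes with these central letters. DN and SP4 regions have 13.2% with ETS and 8.41% with GATA matches, above DN and SP8 regions, and 18.2% with RUNX matches, below them.

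Set against DN and SP8 regions, which differ only in the single-positive stage called, the members had lower RUNX, CTCF and EGR and higher ETS, PU.1 and GATA shares. For RUNX and CTCF the members did not depart from all other regions. These had 17.6% (17.5 to 17.8) for RUNX and 1.31% (1.26 to 1.36) for CTCF, overlapping the members' intervals. RUNX letters stood in 18.2% (17.2 to 19.3) of members and 27.7% (26.3 to 29.1) of DN and SP8 regions, a log2 ratio of -0.61 with the same direction on 19 of 19 chromosomes. ETS letters had 13.2% against 7.45% (6.67 to 8.31), a log2 ratio of 0.83, also on 19 of 19. GATA letters had 8.41% against 5.71% (5.03 to 6.48), a log2 ratio of 0.56, on 17 of 19. CTCF, an insulator protein with a long consensus, had 1.15% (0.898 to 1.48) against 2.47% (2.03 to 3.01), a log2 ratio of -1.10, on 14 of 19, and 1.30% of all regions. EGR letters had 0.577% against 1.45%, on 16 of 19. PU.1 letters, GAGGAAGT, contain ETS letters and had 3.35% (2.89 to 3.87) against 2.19% (1.78 to 2.70). The PU.1 share of all regions, 2.92%, lay within the members' interval. Intervals of the remaining 20 motifs overlapped. With percentiles of 25 or more at both stages, 2015 members and 1359 DN and SP8 regions were left, and the shares were 20.1% against 33.8% for RUNX, 16.2% against 9.05% for ETS and 10.6% against 5.52% for GATA.

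By nearest TSS, the members fell to 3704 of the 17393 protein-coding genes that had any region. Most of these genes had a single member, while 979 held at least 2, 318 at least 3 and 51 at least 5. *Foxp1*, encoding a forkhead factor that keeps naive T cells quiescent, had the most, with 9 of its 248 regions (3.63%). All of these were low, with a highest lower percentile of 21.3. In the next genes the members were a larger part of fewer regions. There were 8 of 54 at *Gm10260* (14.8%), 8 of 69 at *St6galnac3* (11.6%), a sialyltransferase gene, and 8 of 137 at *Vrk1* (5.84%), a nuclear kinase gene. At *Vrk1* none of the 8 was in the gene, and the farthest lay 650718 bp downstream at chr12:106681435-106681617, with percentiles of 30.4 at DN and 68.9 at SP4.

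*Bmper*, which encodes a secreted modulator of BMP signals, had 7 of 38 regions (18.4%), 6 of them upstream of the gene. The tallest at DN, at chr9:23088318-23088727, had percentiles of 81.6 at DN and 42.3 at SP4. *Azi2* (an adaptor of the TBK1 kinase), *Farp1* (a FERM domain protein), *Ptpn13* (a tyrosine phosphatase) and *Rbfox2* (a splicing factor) each had 6 of 28 (21.4%). Other genes also had 6 members, *Bcl2* and *Sox4* among them, and those with the larger shares were kept for the 15 named here. All 6 at *Rbfox2* and all 6 at *Srpk2* (of 40 regions) lay within the gene. The list was completed by *Nav2* with 7 of 104, *Adgrl2* with 7 of 129, *Khdrbs3* with 6 of 38 and *Epb41l4b* with 6 of 56, and by *Maf*. None of the members of these 15 genes overlapped a TSS of a protein-coding transcript of its gene.

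*Maf* encodes c-MAF, a bZIP factor of helper, regulatory and innate-like T cells. Its 7 members of 99 regions (7.07%) spread from 63288 bp upstream to 563062 bp downstream of a *Maf* TSS, and the farthest lay in an intron of the neighbouring *Wwox*. At 34787 bp upstream, chr8:115742581-115743104 had a percentile of 94.4 at DN and 10.5 at SP4, and in *Wwox* chr8:115312643-115312911 had 89.8 and 19.3. The highest lower percentile was at chr8:115568462-115568668, 138428 bp downstream, with 70.0 and 53.5 and with ETS, STAT, ROR and MYB matches among others. The reverse imbalance, 2.06 at DN and 35.2 at SP4, was seen at chr8:115417260-115417434. The other *Maf* regions included 27 called at all 4 stages, 28 DN-only and 10 SP4-only regions.

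*Gata3* encodes the zinc finger factor needed for T cell commitment and for the CD4 fate. It had 5 members of 124 regions, all downstream. The closest, 21932 bp from a TSS, was at percentile 59.6 at DN and 6.52 at SP4. A member 761502 bp away at chr2:9116694-9117098 had 75.4 and 75.0, with the nearest DP or SP8 peak 63443 bp away, and another 1132935 bp away had 65.6 and 59.8. Assignment over such distances rests on proximity alone.

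**Figure D4:**
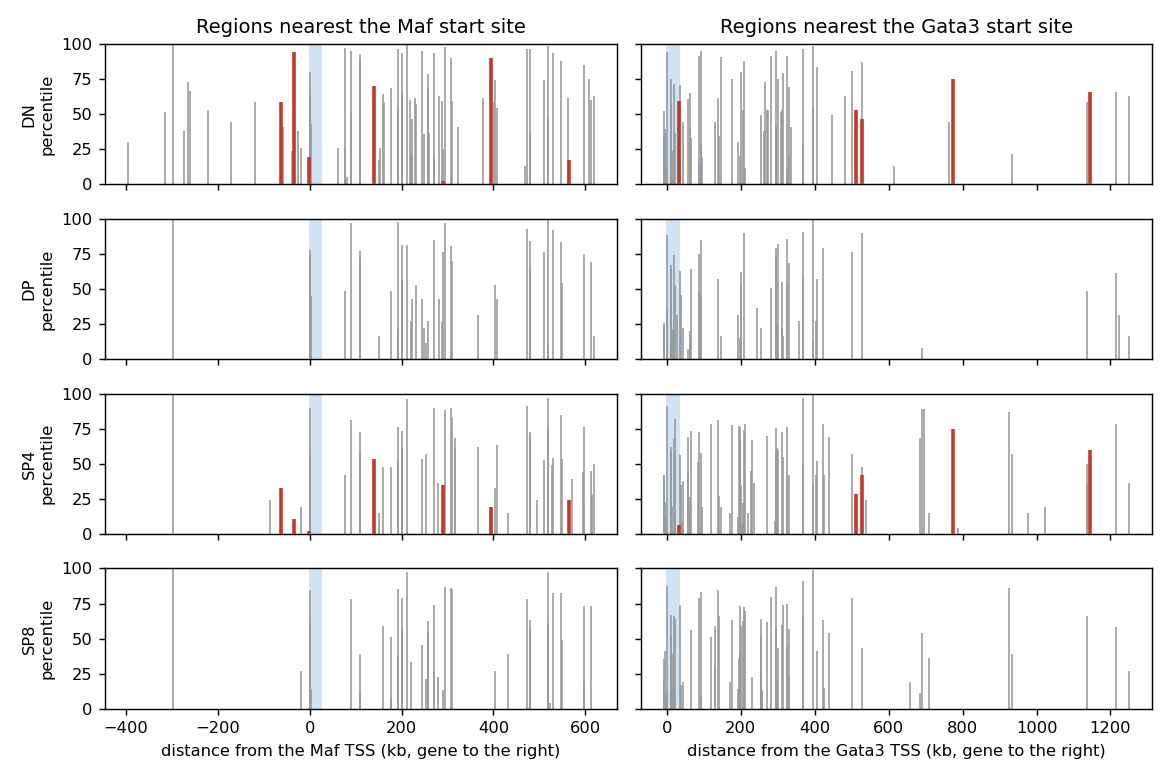
Regions whose nearest protein-coding TSS belongs to Maf (left) or Gata3 (right), by distance in kb from the outermost start of the gene (x axis) and percentile of fold enrichment in the list of each stage (y axis, 1 row per stage). Red lines are the 7 and 5 DN and SP4 regions, grey lines other regions and the blue band the gene; red lines are absent from the DP and SP8 rows by the rule of selection, and the tallest is at 94.4 in the DN row of Maf.

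The windows of 4 further members are shown because the gene with the nearest TSS encodes a regulator or cytokine of helper T cells. They are the members of *Gata3*, *Il13*, *Rora* and *Il10* with the highest lower percentile and were singled out after their values were seen, on the plus strand of mm10 with capitals as above.
Gata3 window, chr2:9116967-9117066: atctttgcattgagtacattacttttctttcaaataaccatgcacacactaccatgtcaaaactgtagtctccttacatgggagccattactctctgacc
Il13 window, chr11:53656874-53656973: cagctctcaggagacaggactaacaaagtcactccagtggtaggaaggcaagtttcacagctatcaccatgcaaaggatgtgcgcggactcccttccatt
Rora window, chr9:68942644-68942743: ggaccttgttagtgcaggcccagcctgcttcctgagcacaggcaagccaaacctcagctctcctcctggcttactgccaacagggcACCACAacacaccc
Il10 window, chr1:130996492-130996591: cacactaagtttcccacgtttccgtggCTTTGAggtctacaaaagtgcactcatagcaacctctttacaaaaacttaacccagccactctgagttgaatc
The *Rora* window held a RUNX match and the *Il10* window a TCF7/LEF1 match, and the other windows held none of the 8 motifs. The *Il10* member shown, 23180 bp upstream, was low, at percentiles of 21.6 at DN and 36.3 at SP4, while a member 18353 bp downstream had 75.3 and 19.3.

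Genes were also grouped in 21 lists of 7 to 20 genes with regions, and the share of members among the regions of each list was set beside the 2.79% of all regions. The Th2 and type 2 innate list had 25 members among 616 regions (4.06%, 2.76 to 5.92), at 9 of 20 genes. *Il13*, a type 2 cytokine gene, had 2 of 9 regions. Both lay in introns of *Rad50*, the neighbouring gene that holds the Th2 locus control region. Those at chr11:53655074-53655520 and chr11:53656678-53657190 had percentiles of 62.3 and 67.4 at DN and of 83.6 and 68.7 at SP4, and the nearest region with a DP or SP8 peak was 18349 bp away. *Rora*, encoding a nuclear receptor of innate lymphoid and Th17 cells, had 3 of 87, of which chr9:68942555-68942973 in an intron reached 98.2 at DN and 53.5 at SP4. *Id2*, an inhibitor of E proteins, had 3 of 126. *Il1rl1*, the IL-33 receptor gene, had 1 member in an intron 514 bp from a TSS, with 12.9 at DN and 62.3 at SP4 and GATA, ROR and SOX matches, named after its values were seen.

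The innate-like and gamma delta T cell list had the highest share of the T cell lists, 27 of 605 regions (4.46%, 3.08 to 6.42), at 11 of 18 genes. The lower bound of its interval was above 2.79%. That of the early progenitor list, at 2.85%, was above it by little, and that of the Th2 list was not. The innate-like list shares *Maf* and *Rora* with the Th2 list. *Sox4*, a factor of early and innate-like T cells, had 6 of 145, the tallest at DN reaching 77.6 with 28.5 at SP4. *Etv5*, an ETS factor gene, had 3 of 43. *Ccr6*, a chemokine receptor gene, had 2 of 16, 1 of them at 56.2 and 69.2, and *Il17f*, a cytokine gene, had 1 of 3, 804 bp upstream of its TSS at 37.8 and 51.7. *Ccr6* and *Il17f* were named after their values were seen. When regions were instead taken within 50 kb of the gene body, the shares were 2.75% for this list and 2.37% for the Th2 list.

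The early progenitor list had 26 of 625 (4.16%, 2.85 to 6.03), at 13 of 20 genes, and 4.04% within 50 kb of the gene bodies. *Runx2* had 5 of 96, of which an intronic member 135287 bp from a TSS had 63.1 at DN and 24.0 at SP4 with IRF and MYB matches. *Bcl11a*, an early progenitor and B cell factor gene, had 3 of 45, with 37.9 at DN and 61.1 at SP4 in the one at chr11:24235460-24235621. *Erg*, an ETS factor gene of stem cells, had 3 of 58 and *Mef2c* 3 of 57. *Kit*, the stem cell factor receptor gene, had 1 of 46 and *Lmo2* 1 of 24, at 62.5 and 41.4, named after their values were seen.

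The next lists had shares below that of all regions, with intervals that include it except for TCR signalling. The CD4 lineage and GATA3 list had 35 of 1523 (2.30%, 1.66 to 3.18) with *Runx1* at 4 of 192 and *Bcl11b* at 3 of 131 beside *Maf* and *Gata3*. *Zbtb7b*, encoding the CD4 fate factor ThPOK, had 1 of 13, an intronic member 4798 bp from a TSS at chr3:89382026-89382391. It had percentiles of 28.1 at DN and 58.1 at SP4, held GATA and ETS matches and was named after its values were seen. The CD8 and cytotoxic list had 6 of 368 (1.63%, 0.749 to 3.51), with *Runx3* and *Ifng* at 2 each and *Ccl5* and *Cd8b1* at 1. The same list had 12 DN and SP8 regions (3.26%), which are 2.11% of all regions. No interval was computed for this small number, so it is not read as a difference. The TCR signalling list had 8 of 609 (1.31%, 0.667 to 2.57), with an upper bound under the share of all regions. *Cd247* and *Plcg1* had 2 each and *Fyn* 1. The late DN and beta selection list had 6 of 378 (1.59%), with 2 at *Ccr9*, a chemokine receptor gene, and 1 each at *Egr1* and *Egr3*. Egress and naive T cell genes had 12 of 668 (1.80%), with 2 each at *Ccr9*, *Dapl1* and *Tlr1* and 1 at *Cxcr4*. Within 50 kb of the gene bodies the share was 3.0%. That setting takes another set of regions, for which no share over all genes is given here. Cytokine receptor genes had 8 of 448 (1.79%), with *Tgfbr2* at 2 of 100, followed by *Ifnar1*, *Il17ra* and *Il18rap* at 1 each.

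Signalling and regulatory lists lay near the share of all regions. The IL-7 receptor and STAT5 list had 13 of 514 (2.53%, 1.48 to 4.28), of which 6 of 82 were at *Bcl2*, the survival gene, 2 each at *Ccnd2* and *Socs1* and 1 at *Igf1r*. The *Bcl2* member at chr1:106707129-106707577, 5602 bp into the gene, had 61.6 at DN and 44.6 at SP4. The Notch list had 18 of 627 (2.87%, 1.82 to 4.49), with 5 at *Hes1*, a Notch-induced repressor gene, 5 at *Maml2*, a Notch coactivator gene, 2 at *Trib2* and 1 at *Deptor*. *Hes1* members ranged from 9.61 at DN and 55.9 at SP4 to 81.9 and 6.94. The regulatory T cell list had 24 of 848 (2.83%, 1.91 to 4.18), with 4 of 53 at *Icos* (a costimulatory receptor), 3 of 15 at *Il10* (an anti-inflammatory cytokine) and 3 of 45 at *Prdm1* (the repressor BLIMP1) after *Foxp1*. The NF-kB and TNF receptor list had 9 of 304 (2.96%, 1.57 to 5.53) and 2 DN and SP8 regions. *Nfkb1* had 3 and *Rel* 2 of the members, both genes of NF-kB subunits, and *Cd27* and *Tnf* 1 each. The *Tnf* member overlapped the TSS with a percentile of 1.38 at SP4. Within 50 kb of the gene bodies the regulatory T cell share was 1.92% and the NF-kB share 2.08%.

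**Figure D5:**
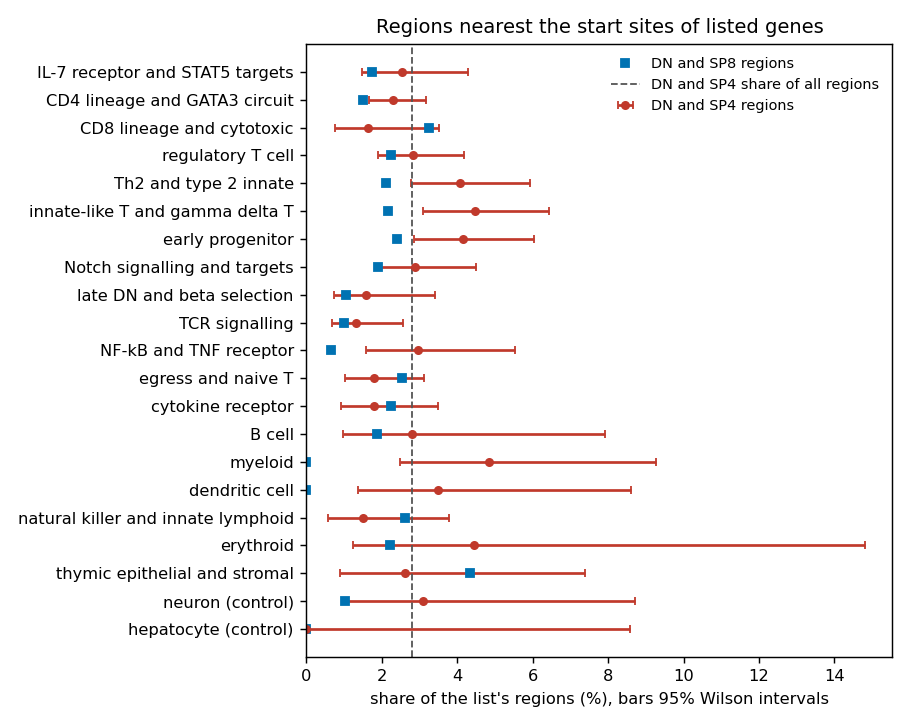
Share of regions (x axis, %) that were DN and SP4 regions (red, with 95% Wilson intervals) or DN and SP8 regions (blue squares) among the regions nearest the genes of 21 lists; the dashed line is the 2.79% of all regions that were DN and SP4 regions, and DN and SP8 regions made up 2.11%. The myeloid list lies highest at 4.85% with a wide interval, the innate-like, erythroid, early progenitor and Th2 lists at 4.46%, 4.44%, 4.16% and 4.06%, and TCR signalling below the line at 1.31%; within 50 kb of the gene bodies the innate-like and Th2 shares were 2.75% and 2.37%.

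Lists for other cell types gave small numbers. The myeloid list had 8 members among 165 regions (4.85%, 2.48 to 9.27) and no DN and SP8 region, and 3.16% within 50 kb of the gene bodies. Its members included pairs at *Lyz2* (lysozyme), *Cebpb* and *Csf3r*, and the tallest at *Lyz2*, at chr10:117275002-117275189, had 75.4 at DN and 45.0 at SP4. The dendritic cell list had 4 of 115 (3.48%), at *Irf8*, *Batf3* and *Flt3*. B cell genes had 3 of 107 (2.80%), all in introns of *Ebf1*, and erythroid genes 2 of 45 (4.44%), 1 of them at *Rhag*, and 2.86% within 50 kb of the gene bodies. The natural killer and innate lymphoid list had 4 of 268 (1.49%), at *Id2* and *Il18rap*, and 0.488% within 50 kb of the gene bodies. Thymic epithelial and stromal genes had 3 of 115 (2.61%), at *Ccl25* and *Pecam1*. The controls had 3 of 97 (3.09%) for neurons, at *Grin1*, *Nefl* and *Rbfox3*, and 0 of 41 for hepatocytes (upper bound 8.57%). All of these intervals include the 2.79% of all regions. Whether cells of another type add to the DN or the SP4 list was not tested.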

How the data were processed

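The ATAC-seq reads of each sorted stage were processed by the authors, who aligned them to mm10, down-sampled libraries to the median depth, pooled the mice of a stage and called peaks with MACS2 at a false discovery rate of 5%. Each deposited list gives the interval and the summit offset of every peak as the authors' caller wrote them. The fold enrichment is a ratio over local background computed by the authors, and the −log10 q-value was deposited as the caller gave it. Pooling hides differences between mice, down-sampling makes the depth of the stages more alike, and the depth behind a single peak is not in the lists.

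Computed here from the lists were the merged regions, their classes, percentiles within a list, distances to the nearest TSS, motif matches and gene assignments, with Python 3.11.15 code using numpy 2.4.6, pandas 2.3.3 and scipy 1.17.1. The gene models combined GENCODE M21 with RefSeq (249203 transcripts), and sequence and repeat masking were read from the RefSeq copy of GRCm38.p6. A region went to the protein-coding gene with the nearest TSS. The members and the lists were chosen with earlier results of these data known. Genes named are the 15 with most members (ties by the larger share), the 15 tallest members and up to 4 genes of each list, and motifs named are the 5 highest and 5 lowest by log2 ratio, with other names marked. No test between stages was run. The code was tested on simulated lists.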

Additional observations from a re-analysis of the deposited data

How the results depend on the processing

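Each of the 4 mice gave all 4 stages, but the peak lists used here allowed no paired analysis. The peaks of each stage were called on the pooled reads of the 4 mice, and no result comes from a test. Leaving out a mouse was not possible with these lists either. The number of members, 5197, was 2239 with equal numbers of peaks from each list and 2015 with a percentile of 25 or more at both stages; it stayed within 1.5 times with a q-value of at most 0.001, with an overlap of at least 50% of the shorter peak and without a DP or SP8 peak within 250 bp. The promoter share was 11.8% with promoters of 1000 bp and 2.17% with protein-coding transcripts only. The distal share was 83.3% with equal numbers, 83.2% without a DP or SP8 peak within 250 bp, 84.4% with percentiles of 25 or more and 91.4% with protein-coding transcripts only. The median distance to a TSS was 6816 bp without a peak within 250 bp, 8257 bp with percentiles of 25 or more and 20380 bp with protein-coding transcripts only. The share of members whose nearest region was a member was 3.71% with equal numbers and 3.62% with percentiles of 25 or more, beside 1.43% and 1.08% of all regions that were then members. Over whole regions, which differ in width between classes, the log2 ratio of the SOX share was -0.21, that of the GFI1 share -0.17 and that of the PBX share -0.25, opposite to the values in 100 bp windows, and the IRF and GATA ratios were 0.09 and 0.17; the cause was not tested. The CREB ratio was -0.35, from shares with overlapping intervals, and 0.19 among distal regions. Of 40 alternative motif values, 28 stayed within the interval around the main value and 10, PBX among them, moved beyond it. These came in addition to the reversals of SOX and GFI1. Of 42 gene list values, 39 stayed within the interval of the main share and 3 moved beyond it. With only the SP4 list cut to the length of the SP8 list, an alternative added after seeing the data, there were 3936 members. The comparison of motifs and of numbers with DN and SP8 regions was recomputed under alternatives chosen after seeing the data, and the RUNX, ETS, GATA and CTCF ratios kept their signs in the 4 run for them (percentiles of 25 or more, distal regions, 200 bp windows and whole regions); the changes to the peak lists were run for the numbers only.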
